A study of Canis lupus familiaris with 30 samples.

Results

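Integrins and laminins were followed across 30 canine thyroid tumors as 34 genes of the 30424 in the count table. The rule matched 35 rows, of which these 34 are reported. Members were rows whose symbol began with ITGA or ITGB and went on with digits or a letter, or with LAMA, LAMB or LAMC and digits. ITGAX and ITGAM were left out by that rule, and ITGAD and LAMA5 were not analysed here. The members comprised 15 integrin alpha chains, 8 integrin beta chains, 10 laminin chains and ITGBL1, an integrin-like protein that is not a receptor chain. All 34 had at least 10 counts in at least 5 tumors, and 33 had a count in every tumor.

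Total RNA was taken from primary tumors of the thyroid gland of dogs, with 1 library for each tumor. The labels put all 30 in a single group of tumor tissue, and no normal thyroid was analysed here. The study classed its tumors as follicular or medullary and by growth pattern, but the labels carry neither, so these classes were not used and no comparison between them was made. Tumors are therefore named by library and described as 1 labelled group, although they fell into 2 branches when clustered on other genes. Ranges over 30 tumors span both branches.

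Integrins are cell surface receptors made of an alpha and a beta chain, and the pair decides which matrix protein or cell surface partner is bound. Laminins are trimers of an alpha, a beta and a gamma chain and build the basement membrane, the sheet on which thyroid follicular epithelium and capillaries rest. The alpha6-beta4 integrin anchors epithelial cells to laminin through hemidesmosomes. Integrins with the alphaV chain bind ligands that carry the RGD motif, and those with beta6 or beta8 release active TGF-beta from its latent form.

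Library totals ranged from 12288945 to 45148677 counts on genes, with a median of 25569678, and members took between 0.116% and 1.30% of a tumor's counts. A pair of libraries stood apart. TC538 had the smallest size factor (0.279, the next smallest being 0.713) and the lowest mean Spearman correlation with the other tumors over all genes (0.856, the next 0.881). TC1088 was excluded by the study from its differential expression. It had the lowest summed level of the 10 follicular cell markers, at 8.04 against 18.62 in the median tumor and 22.78 in the highest, and the lowest level of thyroglobulin (TG), at 3.70 against a median of 18.31. These 2 tumors also sat at the ends of many members, TC538 for 10 of 34 and TC1088 for 8, and results that rest on them are given without them. Levels throughout are log2 of the count divided by a median-of-ratios size factor, plus 1. They depend on gene length, so they are compared between tumors and never between genes. Less RNA per cell and fewer cells of a type cannot be told apart in such bulk samples.

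Laminin chains varied most between these tumors, and integrin alpha chains varied least. The SD of the level reached 1.5 in 6 of 10 laminin chains (60.0%), 3 of 8 integrin beta chains (37.5%) and 2 of 15 integrin alpha chains (13.3%), against 19.5% of all 18711 genes tested. Over all 34 members it did so in 12 (35.3%). The median SD was 1.71 for laminin chains, 1.16 for beta chains, 1.02 for alpha chains and 0.95 for all genes tested. Within the 25 tumors of the larger branch alone, a count added after seeing the data, 5 of 10 laminin chains, 2 of 8 beta chains, 2 of 15 alpha chains and 10 of 34 members (29.4%) reached that SD, against 14.4% of all genes. These shares are a description of how far each gene ranged, and no test was run on them.

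**Figure D1:**
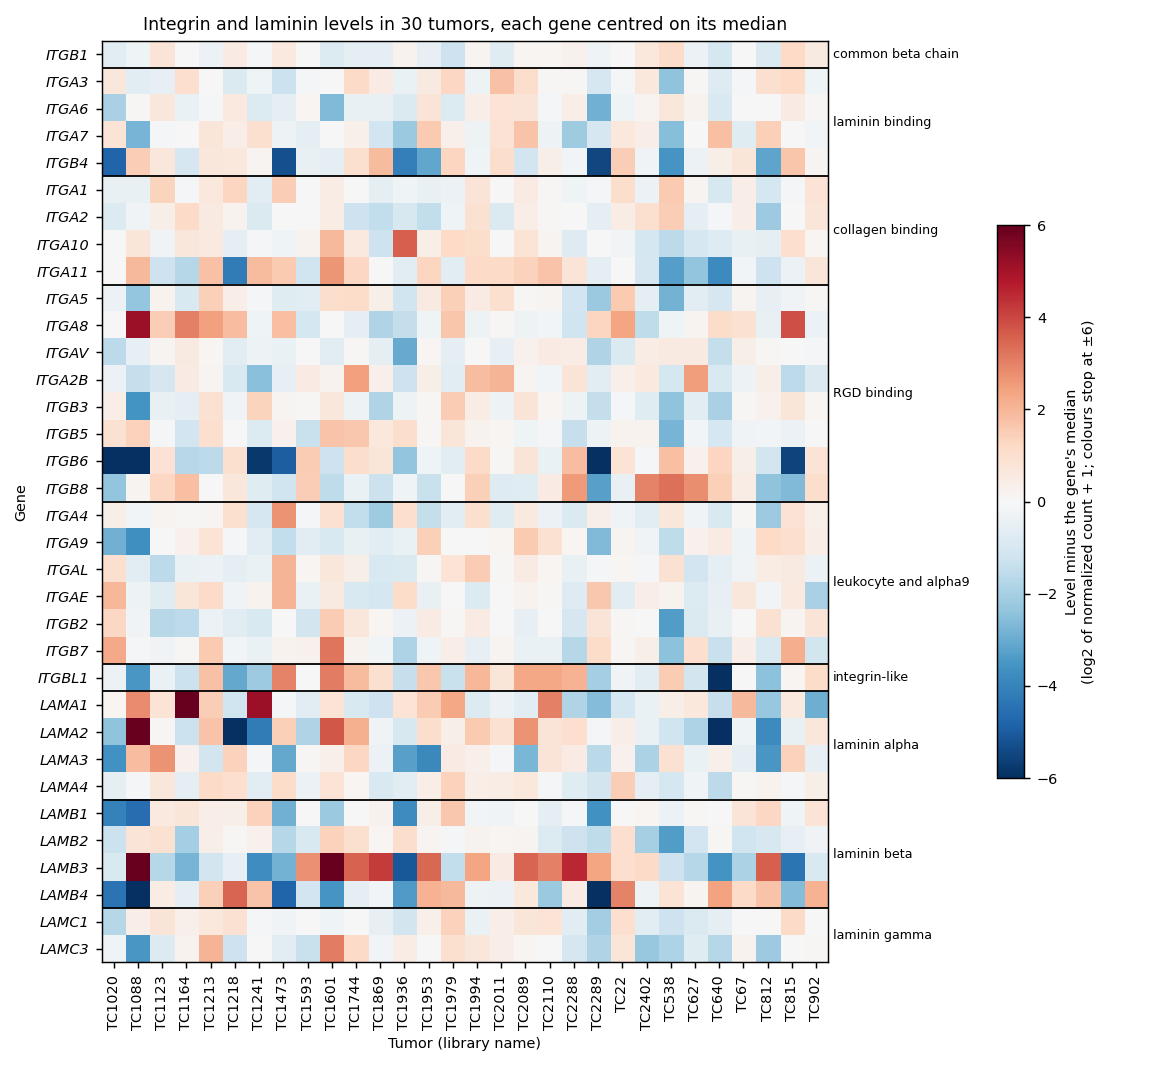
Level of the 34 members (rows, by role) in each of the 30 tumors (columns, by library name), as the difference from the gene's own median on a log2 scale. Colours stop at 6 above or below the median. LAMB3, LAMB4, ITGB6 and LAMA2 show the strongest colours, and ITGB1 is nearly even across tumors.

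LAMB1, the beta chain of the widespread laminins of basement membranes, had a level of 11.20 in the lowest tumor, 15.75 in the median tumor and 17.39 in the highest. Its levels fell into separate ranges. In 6 tumors (TC1088, TC1020, TC1936, TC2289, TC1473 and TC1601) the level was at most 13.52, and in the other 24 it was at least 15.17. LAMB4, a further beta chain about whose trimers little is known, ranged from 0.00 through a median of 7.99 to 11.50. It had 0 counts in TC1088, which allows up to 3 counts at this depth with counting error alone, and a single count in TC2289. The 6 tumors lowest in LAMB4 were the same 6 that were lowest in LAMB1. Of these, 5 formed the smaller of the 2 branches, and TC1088 belonged to the larger. Of 8 C cell markers, which include the calcitonin gene CALCA, 7 passed the count filter. Their mean median-centred level was between 7.46 and 9.67 in those 5 tumors, -1.77 in TC1088 and at most 3.70 in any other tumor. The part of these markers in the laminin levels was not tested.

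The LAMB1 and LAMB4 genes are neighbours on the dog genome by a RefSeq gene table, and the pair was looked at after its values were seen. Within the 25 tumors of the larger branch the levels had a Spearman's rho of 0.58 (two-sided permutation p = 0.00277, adjusted p = 0.843 over all genes tested) and a Pearson's r of 0.82 (permutation p = 1.8e-04). Without TC1088 and TC815, the tumors farthest from the median of LAMB4, r was 0.46 (permutation p = 0.0256). The relation did not pass correction over all genes. As a description, 0.155% of genes had as high a rho with LAMB4. Reads of overlapping or antisense transcripts could not be told apart, since the strand setting of the counting is not given in the sources used here.

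LAMB3, the beta chain of laminin-332 in epithelial anchoring, varied most of all members, with an SD of 3.23 that 0.946% of genes tested matched or exceeded. It was at 1.64 in the lowest tumor (TC1936, 2 counts), 6.73 in the median tumor and 13.44 in the highest. TC1088 (13.38) and TC1601 (13.44) stood above the others, of which the next was TC2288 at 11.23. The 10th and 90th percentiles of its level over tumors were 3.11 and 10.97. LAMB2, the beta chain of laminins in vessels and at the neuromuscular junction, was steadier, from 8.81 in TC538 through 12.16 to 13.54, with every tumor but TC538 at 10.11 or above.

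Among laminin alpha chains, LAMA2 and LAMA1 were each raised in a few tumors. LAMA2, the muscle and mesenchymal laminin alpha chain, was at 1.51 in the lowest tumor, 7.51 in the median tumor and 13.88 in TC1088, with TC1601 next at 11.24. It was thus highest in the tumor with the lowest summed level of fibroblast and pericyte markers (TC1088, 11.97) and next highest in the tumor with the highest (TC1601, 18.36). LAMA1, an alpha chain best known from embryonic basement membranes, had a median of 6.27. It reached 12.65 in TC1164 and 11.41 in TC1241, and no other tumor exceeded 9.29. LAMA3, the alpha chain of laminin-332, ranged from 8.31 through 12.18 to 14.88, with 6 tumors (TC1953, TC1020, TC812, TC1936, TC1473 and TC2089) at 9.44 or below and the other 24 at 10.29 or above. LAMA4, the alpha chain of vascular laminins, was among the steadier members (10.78, 12.37 and 13.83 in the lowest, median and highest tumor).

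LAMC1, the gamma chain that most laminins share, ranged only from 11.39 through 13.46 to 14.86. LAMC3 ranged from 4.95 in TC1088 through 8.42 to 11.50 in TC1601.

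**Figure D2:**
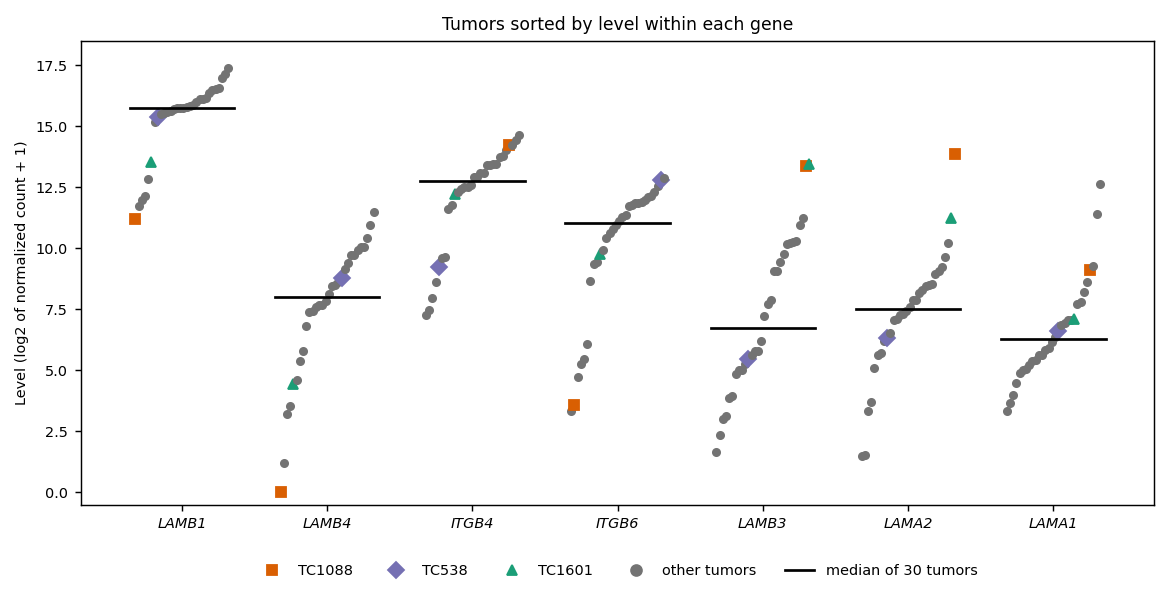
Levels of 7 widely varying members (log2 of normalized count + 1), with the 30 tumors sorted by level within each gene. Squares mark TC1088, diamonds TC538, triangles TC1601, and bars the median of 30 tumors. LAMB1 and ITGB4 show a low set of tumors separated by a gap from the rest, whereas LAMB3 is spread over its whole range with TC1088 and TC1601 alone at the top.

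Of the laminin-binding integrin chains, ITGB4 had the wide range. This beta chain, which pairs with alpha6 in hemidesmosomes, was at 7.27 in the lowest tumor, 12.75 in the median tumor and 14.64 in the highest. TC2289, TC1473, TC1020, TC1936, TC538, TC812 and TC1953 lay at or below 9.63, and the other 23 tumors lay at or above 11.62. The 10th and 90th percentiles of its level were 8.56 and 14.23. ITGA6, its alpha partner, was at 9.24, 12.12 and 12.95 in the lowest, median and highest tumor, and was at most 10.15 in TC2289, TC1601 and TC1020 but at least 11.18 in all others. TC1601 thus had low ITGA6 with an ITGB4 level of 12.21, while TC1473, TC1936, TC538, TC812 and TC1953 had low ITGB4 without low ITGA6, TC538 being at 12.78. The tumors low in ITGA6 all belonged to the smaller branch with high C cell markers, and so did TC2289, TC1473, TC1020 and TC1936 of those low in ITGB4. ITGA3, which with beta1 binds laminin-332, ranged from 9.73 through 12.14 to 13.91. ITGA7, the laminin receptor chain of muscle, ranged from 7.26 through 10.06 to 11.88.

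ITGB6 and ITGB8, the beta chains that with alphaV activate latent TGF-beta, both varied widely. ITGB6 was at 3.32 in the lowest tumor (7 counts), 11.03 in the median tumor and 12.86 in the highest. Its level was at most 6.09 in TC2289, TC1088, TC1020, TC1241, TC815 and TC1473 and at least 8.67 in the other 24 tumors. ITGB8 ran from 6.46 through 9.71 to 13.01 without such a gap, and was highest in TC538. The alphaV chain itself (ITGAV) was steady, at 11.53 or above in every tumor but TC1936 (10.31), with a median of 13.32 and a highest level of 13.88. ITGB5 ranged from 7.85 through 10.64 to 12.36 and ITGB3 from 4.75 through 8.36 to 9.88, the lowest tumors being TC538 and TC1088. ITGA2B, the platelet partner of beta3, was at least 8.77 in TC1994, TC2011, TC1744 and TC627 and at most 7.69 in the other 26.

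The fibronectin receptor chain ITGA5 ranged from 8.02 in TC538 through 10.87 to 12.42. ITGA8, a receptor chain for nephronectin, was at 6.84, 8.65 and 13.80 in the lowest, median and highest tumor, and was highest in TC1088, followed by TC815 at 12.53. Collagen receptor chains were mostly steady. ITGA1 ranged from 9.74 to 12.36 and ITGA2 from 7.48 to 11.14, while ITGA10 reached 11.04 in TC1936 with no other tumor above 9.38. ITGA11, a collagen receptor chain of fibroblasts, was the most variable alpha chain (3.07, 7.24 and 9.91 in the lowest, median and highest tumor).

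ITGB1, the beta chain shared by most of these alpha chains, had the smallest SD of all members (0.61) and stayed between 12.44 and 14.89, with a median of 13.70. Leukocyte integrin chains were measured in every tumor. ITGB2, the beta chain of leukocyte integrins, ranged from 6.25 in TC538 through 9.58 to 11.08, and every other tumor lay at 7.91 or above. ITGAL, its partner on lymphocytes, ranged from 6.29 to 9.90. ITGA4, the lymphocyte receptor chain for VCAM1, reached 10.37 in TC1473 with the next tumor at 8.68. ITGB7 ranged from 3.94 to 9.61 and ITGAE, which pairs with it to bind E-cadherin, from 4.88 to 8.83. ITGA9, a chain for tenascin and other ligands, was at most 8.84 in TC1088, TC1020 and TC2289 and at least 9.98 in the others. ITGBL1 had a median of 7.19, was highest at 10.26 in TC1601 and was at 0.97 in TC640, with the next lowest tumor at 3.70.

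Chains that assemble into a receptor or trimer were then compared within the 25 tumors of the larger branch, so that no correlation was drawn across separate clusters of tumors. The smaller branch, with 5 tumors, was too small for a correlation. Of 28 known partner pairs, 26 had both chains in the table, and they turned on 7 anchor chains. Each anchor was tested against all 18710 other genes, with Benjamini-Hochberg adjustment over all of them. Spearman's rho was positive in 14 of the 26 pairs, 10 pairs had an unadjusted p under 0.05, and 4 passed the adjustment, all with ITGB1 and all positive.

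The alpha chains that rose and fell with ITGB1 were ITGA4 (rho = 0.72, permutation p = 8e-05, adjusted p = 0.00413, r = 0.67 with permutation p = 2.4e-04), ITGA2 (rho = 0.68, permutation p = 2.6e-04, adjusted p = 0.00676, r = 0.63 with permutation p = 6.5e-04), ITGA1 (rho = 0.59, permutation p = 0.00250, adjusted p = 0.0189, r = 0.61 with permutation p = 0.00105) and ITGA6 (rho = 0.52, permutation p = 0.00900, adjusted p = 0.0420, r = 0.54 with permutation p = 0.00557). Without TC1979 and TC815, the tumors farthest from the ITGB1 median, their r was 0.67, 0.74, 0.72 and 0.44. The ITGA6 relation missed the threshold without TC538 (rho = 0.50, adjusted p = 0.0695 by permutation test). Across all genes 12.4% passed the same test with ITGB1 in the positive direction, and the 4 called members were 12.1% of the 33 tested, so the share among members was near that of any gene. The other 8 alpha partners of ITGB1 had rho between -0.42 (ITGA7) and 0.39 (ITGAV) and did not pass.

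The hemidesmosome pair did not pass the test. ITGB4 and ITGA6 had a rho of -0.32 (permutation p = 0.121, adjusted p = 0.308) and an r of -0.34 (permutation p = 0.102). No member passed with ITGB4 by this permutation test, against 1.31% of all genes in the positive and 0.925% in the negative direction. An unadjusted permutation p under 0.05 was seen for 7 of 33 members, against 25.3% of all genes.

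LAMC1 and LAMA4, chains of the vascular laminin-411, had the highest rho of the 26 pairs (0.73, permutation p = 8e-05, r = 0.74 with permutation p = 6e-05). Without TC1979 and TC538 the r was 0.66 (permutation p = 5.3e-04). The adjusted p was 0.150, and 0% of all genes passed with LAMC1. The adjusted p was 0.0312 when Pearson's r took the place of rho in the permutation test. As high a rho with LAMC1 was seen for 0.0374% of genes. LAMC1 had rho of 0.40 with LAMB2 (permutation p = 0.0473, adjusted p = 0.447) and 0.05 with LAMB1 (permutation p = 0.818, adjusted p = 0.936). Of 33 members, 9 had an unadjusted permutation p under 0.05 with LAMC1, against 11.0% of all genes.

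Pairs of ITGAV did not pass either. Its rho was 0.44 with ITGB8 (permutation p = 0.0279, adjusted p = 0.183), -0.40 with ITGB5 (permutation p = 0.0457, adjusted p = 0.230), -0.10 with ITGB3 and -0.01 with ITGB6. Among members 0 passed with ITGAV in either direction, against 0.556% of all genes in the positive and 1.10% in the negative direction. Of 33 members, 4 had an unadjusted permutation p under 0.05, against 20.8% of all genes. With ITGB3 and with ITGB7, 0 members and 0% of all genes passed, and 9 and 3 of 33 members had an unadjusted permutation p under 0.05, against 14.2% and 15.0% of all genes. ITGB2 and ITGAL had a rho of 0.40 (permutation p = 0.0484, adjusted p = 0.153) and an r of 0.20 (permutation p = 0.330).

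ITGB2 was related to a pair of beta chains that are not its partners, which were named after their values were seen. ITGB5 rose with it (rho = 0.59, permutation p = 0.00221, adjusted p = 0.0291, r = 0.72 with permutation p = 1.5e-04), and ITGB8 fell (rho = -0.58, permutation p = 0.00268, adjusted p = 0.0320, r = -0.59 with permutation p = 0.00131). Without TC1123 and TC538 the r was 0.59 and -0.50. That is 1 of 33 members in each direction, or 3.03%, against 5.77% of all genes in the positive and 7.91% in the negative direction.

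**Figure D3:**
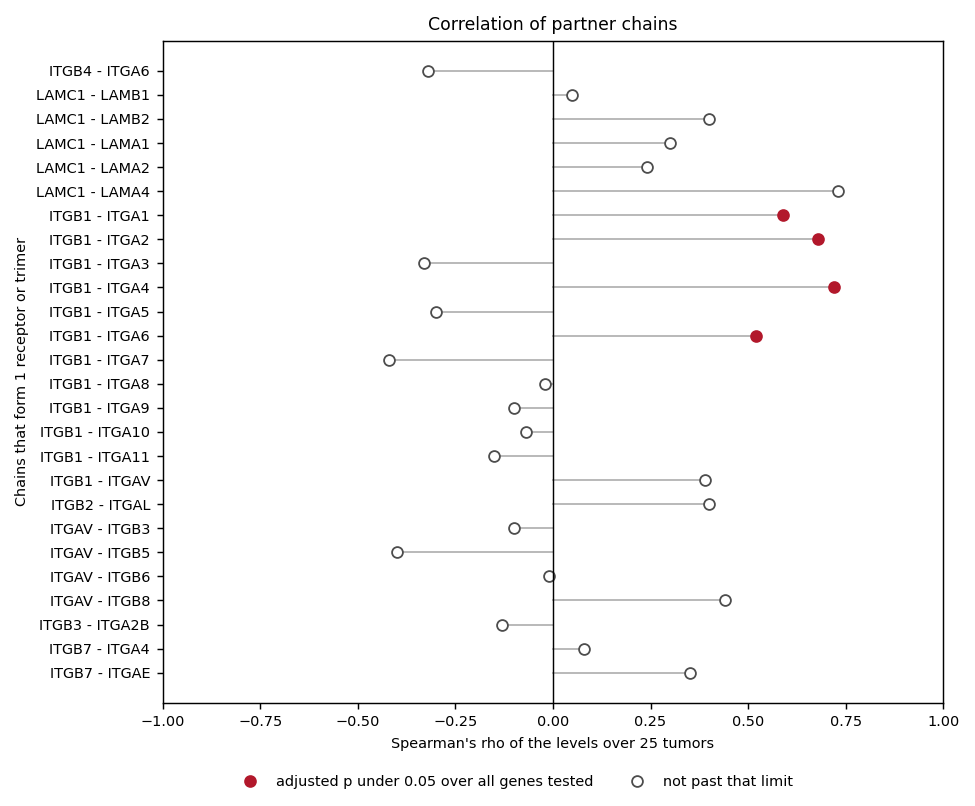
Spearman's rho between the levels of 26 partner pairs over the 25 tumors of the larger branch, with filled points where the adjusted p over all genes tested was under 0.05. The 4 filled points are ITGA1, ITGA2, ITGA4 and ITGA6 with ITGB1, and LAMC1 with LAMA4 has the highest rho without passing.

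Members were next set against the mean median-centred level of marker lists for cell types, in the same 25 tumors. With the 10 endothelial markers, 4 of 34 members (11.8%) passed in the positive direction against 3.81% of all genes, and 0 in the negative against 2.25%. ITGA5 had a rho of 0.90 (permutation p = 1e-05, the smallest the permutations can give, adjusted p = 0.00115) and an r of 0.94, which was 0.89 without TC1088 and TC538 (each r with permutation p = 1e-05). LAMC3 had a rho of 0.78 (permutation p = 3e-05, adjusted p = 0.00247, r = 0.81 with permutation p = 1e-05), and LAMA4 one of 0.77 (permutation p = 2e-05, adjusted p = 0.00184, r = 0.71 with permutation p = 9e-05). LAMB2 had a rho of 0.66 (permutation p = 5.1e-04, adjusted p = 0.0182, r = 0.63 with permutation p = 7.6e-04), and it did not pass without TC538, where its rho was 0.61. Without the same 2 tumors r was 0.74 for LAMC3, 0.76 for LAMA4 and 0.76 for LAMB2. ITGB5 passed only when TC1088 was left out. Over the 25 tumors ITGB5 had a rho of 0.56 with these markers (permutation p = 0.00451, adjusted p = 0.0605). The summed level of the endothelial markers ranged from 10.77 to 14.74 over all 30 tumors, and all 10 were measured.

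With the 10 fibroblast and pericyte markers, 3 of 34 members (8.82%) passed in the positive direction, against 0.679% of all genes, and 0 in the negative against 0.00535%. ITGBL1 had a rho of 0.88 (permutation p = 1e-05, adjusted p = 0.00550, r = 0.91 with permutation p = 1e-05). LAMA2 had a rho of 0.76 (permutation p = 1e-05, adjusted p = 0.00550) but an r of only 0.57 (permutation p = 0.00233). TC1088 had the highest LAMA2 with a low mean level of the markers, although PDGFRA of that list was highest of all 30 tumors in TC1088, at 10.20 against a median of 6.13. Without TC1088 its rho was 0.97, and without TC1088 and TC640 its r was 0.95 (permutation p = 1e-05). LAMC3 had a rho of 0.70 (permutation p = 2.2e-04, adjusted p = 0.0371, r = 0.68 with permutation p = 2.2e-04). It did not pass without TC1088 (rho = 0.66), where ITGA11 passed, nor without TC538 (rho = 0.69) or without a count filter, although its rho stayed close to that over all 25 tumors. Without TC1088 and TC640 the r was 0.89 for ITGBL1 and 0.57 for LAMC3.

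No member passed with the 10 leukocyte markers. The count was 0 of 34 in either direction, against 0.123% of all genes in the positive and 0% in the negative direction, and 6 had an unadjusted permutation p under 0.05, against 8.38% of all genes. ITGA4 had a rho of 0.56 (permutation p = 0.00409, adjusted p = 0.307) and an r of 0.63 (permutation p = 5e-04), which was 0.47 without TC1869 and TC1994 (permutation p = 0.0224). ITGAL had a rho of 0.56 (permutation p = 0.00439, adjusted p = 0.312) and an r of 0.69 (permutation p = 2.6e-04), which was 0.52 without the same tumors (permutation p = 0.0118), whereas ITGB2, ITGAE and ITGB7 had rho of 0.13, 0.05 and 0.03. The list holds lymphocyte and macrophage genes together, and its mean median-centred level over all 30 tumors was highest in TC1473 (1.76) and TC1994 (1.36) and lowest in TC1869 (-1.04). Its summed level ranged from 13.00 to 16.02, the highest being TC1088, where the B cell gene CD79A alone was at 15.96. With the follicular cell markers 0 of 34 members passed, against 0.257% of all genes in the positive and 0.166% in the negative direction, and 4 had an unadjusted permutation p under 0.05, against 11.5% of all genes. The lowest p was that of ITGAE (rho = -0.61, permutation p = 0.00152, adjusted p = 0.102), whose r was -0.28 (permutation p = 0.166). Summed levels of further marker lists varied too over the 30 tumors. They ran from 7.49 to 19.50 for C cell markers and from 10.26 to 15.60 for skeletal muscle markers. The range was 2.42 to 15.48 for parathyroid markers and 0.00 to 7.06 for the 2 of 5 platelet markers in the table. C cell markers were highest in TC1936, of the smaller branch. The highest parathyroid sum was in TC1020, where CASR alone was at 15.48, while PTH and GCM2 were highest in TC2288. Whether tumor cells or other tissue held these transcripts was not tested, nor was the part of these lists in the members' levels.

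**Figure D4:**
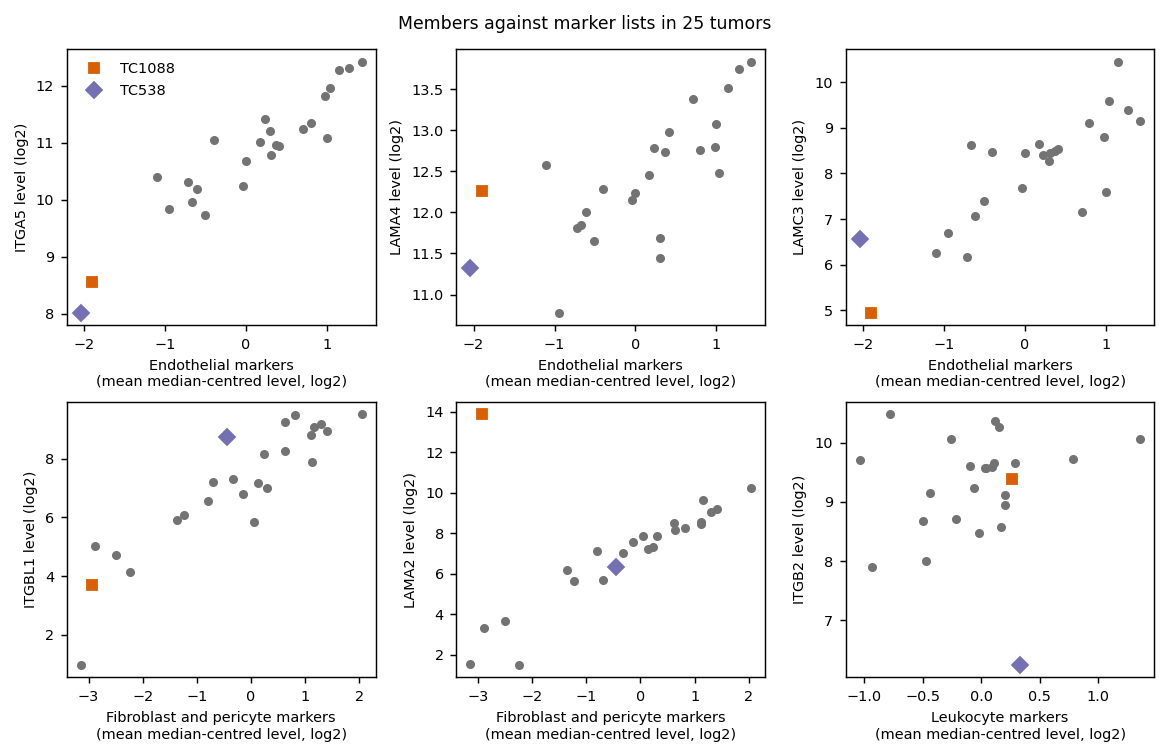
Level of a member (vertical axis, log2 of normalized count + 1) against the mean median-centred level of a marker list (horizontal axis, log2) in the 25 tumors of the larger branch, with TC1088 as a square and TC538 as a diamond. ITGA5 and ITGBL1 follow their lists closely, TC1088 lies far above the line of the other tumors for LAMA2, and ITGB2 is scattered against the leukocyte markers.

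The library total moved with a member as well. TC1869 had the highest total, 45148677, at a size factor of 1.14, and 7548843 of its counts were on TG. The total thus takes in abundant transcripts and is not a measure of depth alone. ITGB4 had a rho of 0.70 with the log2 library total (permutation p = 1.6e-04, adjusted p = 0.0452) and an r of 0.65 (permutation p = 5.2e-04), which was 0.45 without TC1869 and TC538 (permutation p = 0.0334). It was the 1 member of 34 (2.94%) to pass, against 0.556% of all genes in the positive and 0.705% in the negative direction. An unadjusted permutation p under 0.05 was seen for 8 of 34 members, against 27.7% of all genes. Besides ITGB4 these were ITGA5 (rho = 0.60), ITGB5 (0.54), LAMC1 (0.50), ITGB2 (0.47), LAMA4 (0.42), ITGB8 (-0.46) and ITGAV (-0.58), with adjusted p by permutation test from 0.0648 to 0.161. They include ITGB2 with both beta chains related to it, ITGA5 and LAMA4 of the chains that passed with endothelial markers, and LAMC1 with LAMA4. The part of the library total in those relations was not tested.

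Other genes of the pathway were counted against ITGB4 and LAMC1. The lists held 13 basement membrane components, 4 hemidesmosome components, 13 further integrin ligands and 13 cytoplasmic partners that were tested. Of these genes TGFB1 alone passed with ITGB4, where 1.31% of all genes passed in the positive and 0.925% in the negative direction. None passed with LAMC1 by the same permutation test. As 0% of all genes passed with LAMC1, that count says nothing about these lists. TGFB1, the latent cytokine whose active form alphaV integrins release, had a rho of 0.80 with ITGB4 (permutation p = 1e-05, adjusted p = 0.0134) and an r of 0.76 (permutation p = 5e-05), which was 0.70 without TC538 and TC812 (permutation p = 3e-04). It was singled out after its value was seen. TGFB1 also had a positive rho with the library total, as ITGB4 did, but without passing the adjustment (rho = 0.64, permutation p = 8e-04, adjusted p = 0.0516, r = 0.69 with permutation p = 2.4e-04). Without TC1088, COL4A2, HSPG2, DAG1, COL15A1 and PXN passed with ITGB4 too, at rho from 0.58 to 0.65, so that 6 genes passed in place of 1. The share of all genes passing without TC1088 was not counted, so this rise cannot be read as particular to these lists.

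Basement membrane components had the highest median rho of the lists with each anchor, at 0.42 with ITGB4 and 0.48 with LAMC1, where the median over all genes was 0.01 with both. With LAMC1 the collagen chain COL15A1 had a rho of 0.64 and the laminin-binding nidogen NID1 one of 0.60, neither passing the adjustment (adjusted p = 0.214 and 0.247 by permutation test). Hemidesmosome components had a median rho of 0.23 with ITGB4, with COL17A1, the transmembrane collagen of hemidesmosomes, at 0.05, CD151, a tetraspanin bound to laminin-binding integrins, at 0.40, PLEC, the plakin that ties the beta4 chain to keratin filaments, at 0.44 and DST, a further plakin, at -0.25. None of these 4 passed.

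The genes most like a few chains were ranked by rho over the same 25 tumors, as a description. For ITGB4 they were KYAT1, a kynurenine aminotransferase, SORBS3, an adaptor of focal adhesions, and JAG2, a Notch ligand, each at 0.85. For ITGB6 they were CD44, the hyaluronan receptor (0.83), ASAH1, acid ceramidase (0.79), and ARHGAP21, a regulator of small GTPases (0.78). ITGB2 was most like GPN2, a small GTPase (0.83), SPI1, the transcription factor of myeloid cells (0.83), and SH3BGRL3 (0.82).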

How the data were processed

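Per the labels and the study's methods, total RNA of 30 primary canine thyroid tumors was sequenced from ribosome-depleted libraries, and the authors used STAR for both alignment and counting per gene, on the CanFam3.1 build. The deposited values are raw counts of reads per Ensembl gene, 1 column for each tumor and 0 columns of other samples. The strand setting is not given in the sources used here. Of 30424 genes, 15780 carried a symbol. Library totals of 12288945 to 45148677 counts set the precision of low genes, and floors cover counting error only.

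Counts were divided by median-of-ratios size factors (15611 genes) and expressed as log2 with a pseudocount of 1. The test covered the 18711 genes that reached 10 counts in 5 or more tumors. The labels give 1 group, so nothing was compared between groups and edgeR's test was not needed. Tumors were split into 2 branches by Ward linkage on 737 genes with mean level above 2 and variance above 6, without members or listed genes, and Spearman's rho was tested over the 25 tumors of the larger branch with 100000 two-sided permutations, the smallest p being 1e-05. Benjamini-Hochberg adjustment ran over all genes tested for each anchor chain, for each of 4 marker lists and for the library total. A p-value gives how often permuting the anchor, marker list or library total over tumors gave a correlation as large in size. No extraction or sequencing batch was named in the labels used here. Members, lists and pairs were chosen with earlier results of these data known. Genes were named if they were members, list genes, or among the 3 highest in rho with ITGB4, ITGB6 and ITGB2. A member is not reported here, and counts leave it out. TGFB1, ITGB5 and ITGB8 with ITGB2, the neighbouring pair and the choice of list genes set out with values were singled out after their values were seen. Gene order came from a RefSeq table of UU_Cfam_GSD_1.0, in which 34 members matched by symbol. The symbol rule read to the letter would leave 31 members. Alternatives were TMM scaling, a pseudocount of 8, no count filter, 50 counts in 15 tumors, Pearson's r, and leaving out TC1088 or TC538. Scripts used Python 3.11.15, numpy 2.4.6, pandas 2.3.3 and scipy 1.17.1, and were tested on simulated data.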

Additional observations from a re-analysis of the deposited data

How the results depend on the processing

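Of 182 combinations of a partner pair and an alternative, 170 kept their direction and their side of the threshold. Part of that count was fixed in advance. A pseudocount of 8 keeps the order of the tumors and could change no rho between chains, and a count filter could change only the adjusted p. In all 136 combinations of a member's median level and an alternative, the median stayed within 1 SD of the main one. That SD, taken between tumors, was 0.61 to 3.23, so a median could hardly pass this limit. TMM scaling moved the levels of a tumor by -0.26 to 0.14 on the log2 scale. The count of pathway genes passing with ITGB4 or LAMC1 was 6 without TC1088, against 1, with the share of all genes not counted there. ITGA6 with ITGB1 missed the threshold without a count filter (adjusted p = 0.0615) and without TC538 (adjusted p = 0.0695), both by permutation test, and LAMC1 with LAMA4 passed by Pearson's r. The sign changed in 6 pairs, none with a main rho above 0.13 in size. By Pearson's r the values were 0.16 for ITGAV with ITGB3, 0.08 for ITGAV with ITGB6, 0.08 for ITGB1 with ITGA8 and 0.04 for ITGB3 with ITGA2B. By TMM scaling they were 0.02 for ITGB1 with ITGA10 and 0.03 for ITGB1 with ITGA8. Without TC538 they were 0.03 for ITGB1 with ITGA10 and -0.04 for LAMC1 with LAMB1. Without TC1088 it was 0.01 for ITGB1 with ITGA8. The cause was not tested. The share of all genes with an SD of 1.5 or more was 11.4% among genes with 50 counts in 15 tumors, 10.7% with a pseudocount of 8 and 14.5% without a filter, so it depends on how many low genes are counted. Low counts limit LAMB4, LAMB3 and LAMA2 in the tumors where they were lowest. No paired analysis was possible because the labels give 1 group.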

Other observations

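A few tumors held the extremes of many members. TC1601 had the highest level of 8 members (ITGA11, ITGB2, ITGB5, ITGB7, ITGBL1, LAMB2, LAMB3 and LAMC3), and it also had the highest summed level of fibroblast and pericyte markers, at 18.36. TC538, the library with the smallest size factor, was lowest for 7 members (ITGA3, ITGA5, ITGA10, ITGB2, ITGB5, ITGB7 and LAMB2) and highest for 3 (ITGA1, ITGA2 and ITGB8). TC1088 was lowest for 6 (ITGA7, ITGA9, ITGB3, LAMB1, LAMB4 and LAMC3) and highest for ITGA8 and LAMA2. TC2289 was lowest for 5 (ITGA6, ITGB4, ITGB6, ITGB8 and LAMC1), and it had the lowest summed level of endothelial markers, at 10.77. These values are given with no explanation, and the tumors were named after their values were seen.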
